A study of Mus musculus with 7 samples.

Results

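Guanylate-binding proteins are large GTPases that interferon-gamma induces in macrophages. The 6 genes described here, Gbp2, Gbp3, Gbp4, Gbp7, Gbp8 and Gbp9, were taken by matching Ensembl gene IDs to symbols, and they are 6 of 24084 genes listed in at least 1 library. The rule is by name and uses no measured value, but the genes were proposed with earlier results of these data known. The files describe 5 further rows as guanylate-binding proteins, and their values are given beside those of the 6.

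RNA was sequenced from tumor-associated macrophages, sorted by F4/80, a surface marker of mouse macrophages, from subcutaneous tumors of the mouse lung carcinoma line LLC. The 3 Dicer1-deleted libraries (D-/-) came from mice that carried the LysM-Cre allele and the floxed Dicer allele, both homozygous. The 4 control libraries (D+/+) came from mice homozygous for the same LysM-Cre allele, with intact Dicer. LysM-Cre expresses the recombinase from the lysozyme gene Lyz2, so the deletion is limited to cells of the myeloid lineage that have used this locus, and both groups carry the insertion. Ages are not given in the labels, nor whether each library is a separate animal, so the tests here see the spread among libraries, which may be technical.

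Within an infected cell, guanylate-binding proteins assemble on the membranes of vacuoles and bacteria, open them and pass microbial products to inflammasomes. Interferon-gamma binds its receptor and activates Janus kinases, and transcription factors downstream, IRF1 among them, then switch on the Gbp genes. In the mouse the genes form clusters, and GENCODE (release M21, GRCm38) places Gbp7, Gbp3 and Gbp2 on the plus strand of chromosome 3 and Gbp8, Gbp9 and Gbp4 on the minus strand of chromosome 5. Gbp7 spans 142530342 to 142550149, Gbp3 142560026 to 142573209 and Gbp2 142620602 to 142638008. Gbp4 spans 105115767 to 105139586, and the annotated spans of Gbp9 (105077630 to 105139539) and Gbp8 (105014150 to 105139540) reach over it on the same strand. Reads of these 3 genes are therefore less securely assigned than those of the chromosome 3 genes.

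The promoters of the chromosome 3 genes are shown because interferon acts on these genes through short elements near their starts. RefSeq windows (GRCm38.p6, 250 bases before to 50 after the start, plus strand) matched 3 of the 6 genes. Capitals mark matches to the interferon-stimulated response element, searched as TTTC, any 2 bases and TTTC again, or as its reverse complement, and to the gamma-activated site, searched as TTCNNNGAA, which reads the same on both strands. Matches of the 2 motifs did not overlap each other in these windows.
Gbp2, chr3:142620413-142620712: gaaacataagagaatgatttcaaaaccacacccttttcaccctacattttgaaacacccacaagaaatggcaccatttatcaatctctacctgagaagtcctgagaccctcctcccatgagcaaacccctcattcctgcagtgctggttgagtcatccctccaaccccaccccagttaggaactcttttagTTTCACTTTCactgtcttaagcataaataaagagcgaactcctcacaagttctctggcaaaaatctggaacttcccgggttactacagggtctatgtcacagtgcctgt
Gbp3, chr3:142559794-142560093: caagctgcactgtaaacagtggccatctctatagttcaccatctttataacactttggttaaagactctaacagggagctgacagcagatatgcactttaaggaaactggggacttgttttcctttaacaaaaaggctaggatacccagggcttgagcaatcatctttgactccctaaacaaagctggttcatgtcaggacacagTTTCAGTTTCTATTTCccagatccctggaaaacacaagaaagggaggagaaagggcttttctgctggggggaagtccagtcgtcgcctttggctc
Gbp7, chr3:142530086-142530385: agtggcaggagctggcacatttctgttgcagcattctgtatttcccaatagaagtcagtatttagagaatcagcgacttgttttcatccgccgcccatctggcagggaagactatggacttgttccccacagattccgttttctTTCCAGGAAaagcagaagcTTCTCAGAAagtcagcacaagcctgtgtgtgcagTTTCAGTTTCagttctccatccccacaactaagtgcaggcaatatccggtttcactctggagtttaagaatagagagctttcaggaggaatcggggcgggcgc
Each of these windows held the response element: TTTCACTTTC from 59 bases before the start of Gbp2, TTTCAGTTTC from 53 bases before that of Gbp7, and TTTCAGTTTC with an overlapping TTTCTATTTC from 45 and 39 bases before that of Gbp3. Among all 32851 promoter windows of the same length, 3.44% held such a match. Gbp7 also held 2 gamma-activated sites, TTCCAGGAA and TTCTCAGAA, a motif present in 8.30% of all windows. A window at a second start of Gbp3 held neither motif. A match is a run of letters and says nothing of binding. Gbp4, Gbp8 and Gbp9 had no entry.

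Each library held 42974524 to 51152370 uniquely placed reads. Dicer1 was at 6.86 to 7.85 TMM-scaled counts per 1000000 reads (CPM) in Dicer1-deleted and 15.7 to 18.6 CPM in control libraries, without overlap. Its log2 fold change was -1.16 ± 0.23 (SE), with an adjusted p of 0.150 in edgeR and 4.96e-05 in DESeq2. Counts cover the whole gene and not only its deleted part. Dicer1-deleted replicate 2 stood apart on the first principal component, at -58.5, with the other Dicer1-deleted libraries at -23.1 and -20.1 and the controls between 18.9 and 35.6. A trend with transcript length was also strongest in this library. Genes with transcripts under 1000 bases had a median of 0.66 in this library (log2, relative to the average library), and genes of 4000 to 6000 bases one of -0.27. In Dicer1-deleted replicates 1 and 3 the latter was 0.15 and 0.17. Control replicates 1 and 2 had the same direction at a smaller size, 0.28 and 0.30 for the short and -0.11 and -0.15 for the long genes. On the first principal component these controls lay at 27.5 and 18.9, on the side of the other controls, so that component did not follow the length trend. The second component was negative in Dicer1-deleted replicate 2 (-17.8) and in control replicates 1 and 2 (-2.91 and -40.6). It was positive in the remaining libraries (7.21 to 23.7), so its sign went with the direction of the trend. The longest annotated transcripts of Gbp4, Gbp7 and Gbp9 have 4538, 5614 and 5043 bases, and those of Gbp2, Gbp3 and Gbp8 2516, 2682 and 3382. Member results are therefore also given without Dicer1-deleted replicate 2. So are those of other named genes where its omission turns the direction or moves the value by over 1.5 times.

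All 6 genes were expressed in both groups, and all 6 had a higher mean in Dicer1-deleted macrophages, with fold changes between the group means from 1.498 for Gbp7 to 3.29 for Gbp4. None passed an adjusted p of 0.05 in edgeR's quasi-likelihood test over 16226 genes, where 4 genes, or 0.0247%, were called in either direction. At an unadjusted p under 0.05, 3 of the 6 were higher (Gbp2, Gbp4 and Gbp8), beside 3.88% of all genes. In DESeq2 1 of the 6 rose (Gbp8), beside 0.925% of all genes (2.5% changed in either direction). Without Dicer1-deleted replicate 2 all 6 had an unadjusted edgeR p under 0.05, beside 4.53% of all genes that were higher with such a p (9.42% in either direction), and 2 rose in DESeq2 (Gbp3 and Gbp4), beside 0.662%. Without Dicer1-deleted replicate 1 only 1 of the 6 had an unadjusted edgeR p under 0.05, and without replicate 3 only 2. The share of all genes was not counted in these fits. In limma-voom with sample quality weights 0 of the 6 passed, with adjusted p-values of 0.0691 to 0.231, beside 0.493% of all genes. The median log2 fold change of the 6 was 1.001, beside 0.03 for all genes tested, of which 52.6% were above 0. The median of the 6 was 0.54 without Dicer1-deleted replicate 1 and 1.32 without replicate 2. In bulk RNA, more cells that express a gene and more RNA per cell cannot be told apart.

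**Figure D1:**
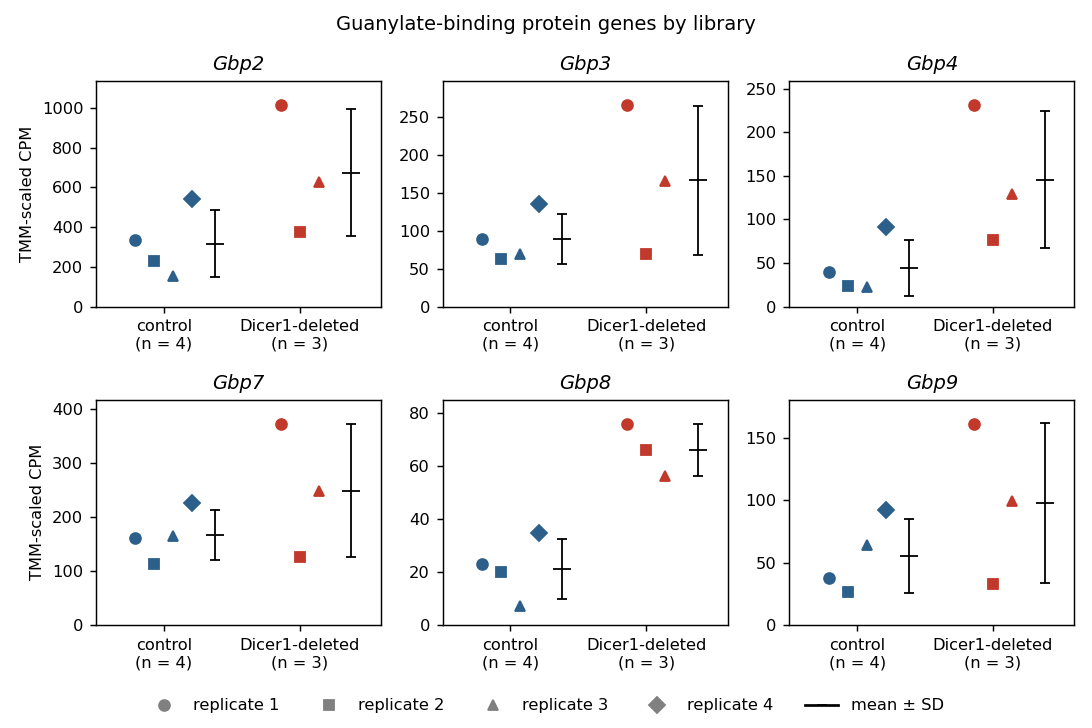
TMM-scaled CPM (vertical axis, from 0) of the 6 genes in the 4 control (blue) and 3 Dicer1-deleted (red) libraries, with symbols for replicates and black bars for the mean ± SD. Dicer1-deleted replicate 1 is the highest library for each gene, and the groups are apart for Gbp8, at 56.2 to 76.0 against 7.00 to 34.6 CPM.

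Gbp2, which coats the vacuoles of intracellular parasites, was the most abundant member. Its level was 1013, 377 and 629 CPM in Dicer1-deleted replicates 1 to 3 and 336, 231, 151 and 541 CPM in control replicates 1 to 4. Dicer1-deleted replicates 1 and 3 were above every control library, while replicate 2 lay below control replicate 4. The means were 673 ± 320 and 315 ± 169 CPM (SD, n = 3 and 4). This gave a log2 fold change of 1.10 with an SE of 0.47, and an edgeR adjusted p of 0.596. Without Dicer1-deleted replicate 1 the log2 fold change was 0.68, and without replicate 2 it was 1.37.

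Gbp8 was the member whose groups did not overlap, a pattern shown in this direction by 3.86% and in either direction by 9.31% of all genes. It was at 76.0, 66.0 and 56.2 CPM in the Dicer1-deleted libraries and at 22.9, 20.2, 7.00 and 34.6 CPM in the controls. Its Dicer1-deleted libraries lay close together, with a mean of 66.1 ± 9.87 CPM against 21.2 ± 11.3 CPM (SD, n = 3 and 4). The log2 fold change was 1.64 ± 0.45 (SE), with an adjusted p of 0.268 in edgeR and 0.0282 in DESeq2. Without Dicer1-deleted replicate 2 the DESeq2 call was lost at a nearly equal fold change (1.64, adjusted p = 0.0554).

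Gbp4 had the largest fold change of the 6. It was at 231, 76.4 and 129 CPM in the Dicer1-deleted and 40.0, 23.3, 22.6 and 91.3 CPM in the control libraries. Control replicate 4 lay above Dicer1-deleted replicate 2, and the other 3 controls lay below all Dicer1-deleted libraries. The log2 fold change was 1.72 ± 0.55 (SE), with an adjusted p of 0.369 in edgeR and 0.0768 in DESeq2. Without Dicer1-deleted replicate 2 Gbp4 rose in DESeq2, with a log2 fold change of 2.02 (adjusted p = 0.0147).

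Gbp3 was at 265, 68.9 and 165 CPM in the Dicer1-deleted and 89.1, 62.2, 69.2 and 135 CPM in the control libraries. Dicer1-deleted replicate 2 lay among the lower controls, and the other Dicer1-deleted libraries lay above all controls. On the log2 scale the difference was 0.91 ± 0.45 (SE), with an edgeR adjusted p of 0.702. Without Dicer1-deleted replicate 2 Gbp3 rose in DESeq2, with a log2 fold change of 1.27 (adjusted p = 0.0438), and without replicate 1 the edgeR value was 0.40.

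Gbp7, linked to the assembly of the oxidase that phagocytes use against microbes, had the smallest difference. It was at 372, 125 and 248 CPM in the Dicer1-deleted and 161, 112, 165 and 225 CPM in the control libraries. Gbp9 was at 162, 33.2 and 99.4 CPM in the Dicer1-deleted and 38.1, 26.3, 64.4 and 92.4 CPM in the control libraries. In both genes Dicer1-deleted replicates 1 and 3 were above all controls and replicate 2 was near the lowest control. The log2 fold changes were 0.58 ± 0.39 for Gbp7 and 0.83 ± 0.55 for Gbp9 (SE, edgeR adjusted p = 0.880 for both). Without Dicer1-deleted replicate 1 they were 0.17 and 0.26, and without replicate 2 0.89 and 1.23.

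The sample titles carry an L code, L4 or L5, whose meaning the labels do not give, and all 6 genes were apart within both codes. Among L5 libraries, Dicer1-deleted replicate 1 was above the 3 controls for all 6 genes, by 2.03-fold (Gbp7) to 4.51-fold (Gbp4) over their mean. Among L4 libraries, both Dicer1-deleted libraries were above the 1 control for all 6, by 1.66-fold (Gbp7) to 4.41-fold (Gbp4). With the L code as covariate, edgeR log2 fold changes were between 0.88 and 2.16 and all 6 had an unadjusted p under 0.05, beside 3.14% of all genes that were higher with such a p. The adjusted p-values stayed between 0.272 and 0.639. A code with 1 library in an arm gives no spread of its own, and groups this small are often apart by order alone. The share of all genes apart within each code was not counted. The 6 genes also moved together over libraries, so they are not separate observations.

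**Figure D2:**
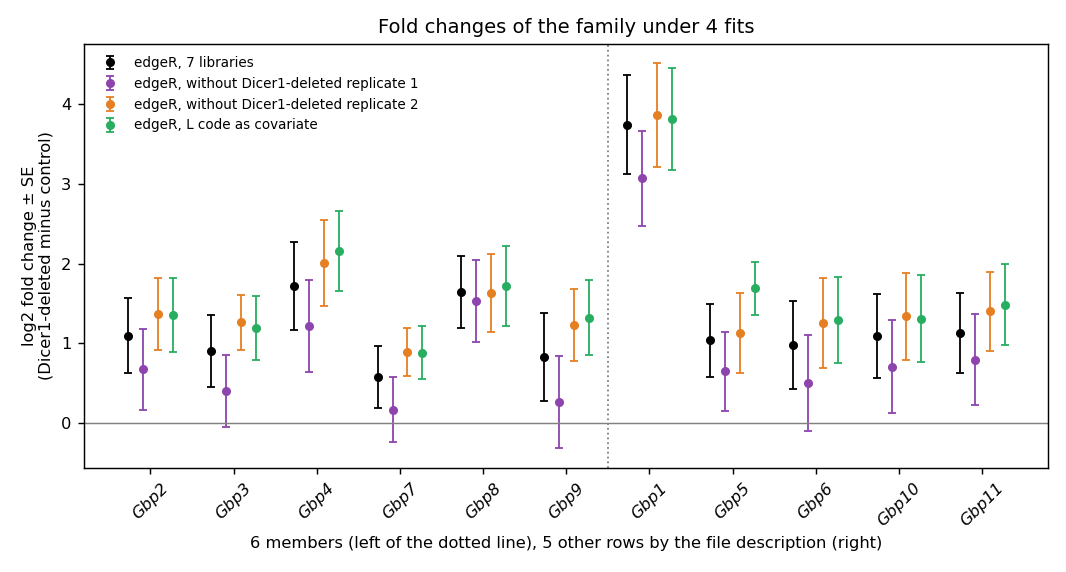
Log2 fold changes (Dicer1-deleted minus control) ± SE of the 6 members and of 5 further family rows under 4 edgeR fits. All points are above 0, those without Dicer1-deleted replicate 1 are the lowest of the 4 for every gene, and the row described as Gbp1 lies at 3.74 with all libraries.

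The other 5 rows also had positive fold changes, and 1 of them, described by the files as guanylate binding protein 1, exceeded all 6 members. Its ID is absent from GENCODE M21, and RefSeq lists Gbp1 as an older name of Gbp2b. It was at 41.8, 19.0 and 11.1 CPM in the Dicer1-deleted and 1.68, 2.15, 0.474 and 2.87 CPM in the control libraries. The groups did not overlap, and the log2 fold change was 3.74 ± 0.62 (SE), with an adjusted p of 0.111 in edgeR and 6.92e-07 in DESeq2. The shares of multiply placed reads credited to it made up 0.366% to 1.08% of its total, by a division among copies that is not stated. The row described as Gbp5 carries an ID that GENCODE M21 gives to Gbp2b, so its identity is uncertain. It was at 16.5 to 35.8 CPM in the Dicer1-deleted and 4.31 to 18.5 CPM in the control libraries. Rows described as Gbp6, Gbp10 and Gbp11 had log2 fold changes of 0.98, 1.09 and 1.13 with overlapping groups, and their edgeR adjusted p-values were 0.792, 0.695 and 0.623.

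Per transcript length, Gbp2 exceeded the other 5 members in every library. The authors' RPKM values, reads scaled to transcript length and depth, were 126 to 403 for Gbp2 in the Dicer1-deleted and 62.9 to 214 in the control libraries. In the controls the order of mean RPKM was Gbp2 (124 ± 66.6), Gbp7 (29.7 ± 8.78), Gbp3 (27.2 ± 10.2), Gbp9 (15.2 ± 8.33), Gbp4 (9.68 ± 7.11) and Gbp8 (7.98 ± 4.29, SD, n = 4). Below Gbp2, neighbours in this order differed by less than 1 SD of the higher gene, except Gbp3 and Gbp9. In the Dicer1-deleted libraries the order was Gbp2 (261 ± 139), Gbp3 (50.6 ± 32.0), Gbp7 (43.9 ± 24.1), Gbp4 (31.4 ± 18.5), Gbp9 (26.7 ± 18.4) and Gbp8 (24.2 ± 4.35, SD, n = 3), with Gbp3 and later neighbours within 1 SD. This SD is the spread between libraries and does not measure how steady the order is within a library. Gbp9 exceeded Gbp4 in every control library, and Gbp4 exceeded Gbp9 in every Dicer1-deleted library.

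Gbp2 made up 59.1% to 61.2% of the summed RPKM of the 6 genes in 6 libraries and 44.0% in control replicate 3. Gbp4 contributed 6.73% to 7.54% in the Dicer1-deleted and 3.39% to 5.66% in the control libraries. Gbp7 contributed 9.21% to 10.6% and 11.4% to 21.8%. For the shares of Gbp4 and Gbp7 the groups did not overlap, in opposite directions, while those of Gbp2, Gbp3, Gbp8 and Gbp9 overlapped. Shares of the same sum depend on each other. Gbp8 reached 10.3% in Dicer1-deleted replicate 2, its highest share, and had its lowest, 1.96%, in control replicate 3.

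**Figure D3:**
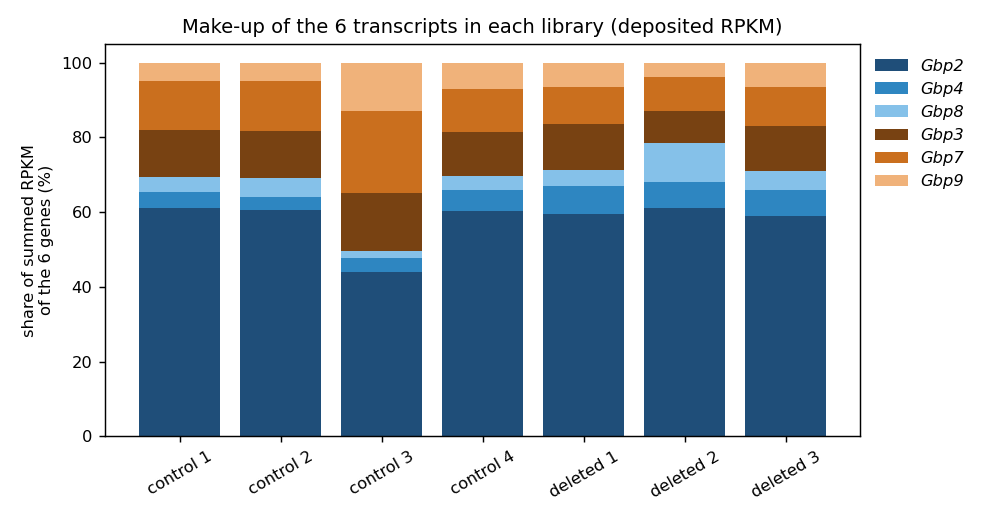
Share of each gene in the summed RPKM of the 6 members (percent, stacked to 100) in the 4 control and 3 Dicer1-deleted libraries. Control replicate 3 has the smallest Gbp2 share, 44.0%, and the largest shares of Gbp7 and Gbp9, 21.8% and 13.0%.

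The levels of the 6 genes followed each other over libraries more closely in some pairs than in others. Pearson correlations of log2 CPM over the 7 libraries, a description of points that share depth, library and group, had a median of 0.87 over 15 pairs. Gbp7 and Gbp9, on different chromosomes, reached 0.97, as did Gbp3 with Gbp7 and Gbp2 with Gbp4. Gbp8 and Gbp9, neighbours on chromosome 5, had the lowest value, 0.35. After these values were seen, Gbp2, Gbp4 and Gbp8 were set apart from Gbp3, Gbp7 and Gbp9 in the plot of library profiles. The 2 sets parted in control replicate 3, where log2 CPM relative to the mean of all libraries was -1.39, -1.498 and -2.17 for Gbp2, Gbp4 and Gbp8 and -0.62, -0.17 and 0.08 for Gbp3, Gbp7 and Gbp9. They also parted in Dicer1-deleted replicate 2, at -0.07, 0.25 and 1.06 against -0.63, -0.57 and -0.88. The sets were made from these same libraries, so their parting is built in and is no separate result. The sets are also not sharp, since Gbp3 followed Gbp2 (0.91) and Gbp4 (0.89) no less closely than Gbp8 did (0.88 and 0.87).

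**Figure D4:**
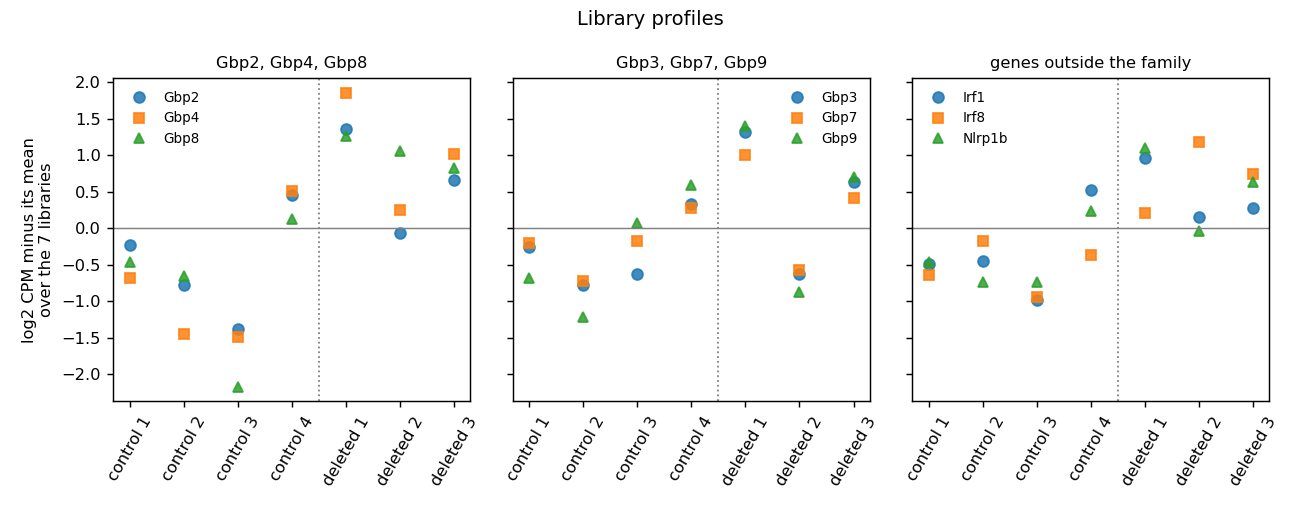
Log2 CPM minus its mean over the 7 libraries, by library, for Gbp2, Gbp4 and Gbp8 (left), Gbp3, Gbp7 and Gbp9 (middle) and 3 genes outside the family (right). Dicer1-deleted replicate 1 is the highest library for all 6 members, and also for Irf1 and Nlrp1b, while Irf8 is highest in Dicer1-deleted replicate 2.

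The gene outside the members that followed them most closely was Nlrp1b, which encodes an inflammasome sensor (r = 0.99 over 7 libraries with the mean standardised log2 CPM of the 6, among 8878 genes of at least 5 CPM). Tmem135 (0.98), Camk1d (0.97) and Prr5l (0.97) were also among the 5 most alike. Nlrp1b was at 32.6, 14.8 and 23.4 CPM in the Dicer1-deleted and 10.98, 9.11, 9.04 and 17.8 CPM in the control libraries. Its edgeR log2 fold change was 1.01 (adjusted p = 0.431). These correlations rest on 7 points and include the difference between groups.

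Of 17 genes of interferon-gamma signalling, none passed in edgeR, 4 had an unadjusted p under 0.05 (8.01% of all genes in either direction), and 1 rose in DESeq2 (0.925% of all genes). The median log2 fold change was 0.31, with 11 positive values, beside 52.6% of all genes. Leaving out Dicer1-deleted replicate 2, the DESeq2 count was 0, 4 genes had an unadjusted edgeR p under 0.05 and 14 values were positive. Ifng, the ligand, was near the detection limit, at 1.29, 0.152 and 0.427 CPM in the Dicer1-deleted and 0, 0.0449, 0 and 0.365 CPM in the control libraries. Dicer1-deleted replicate 1, the highest library for all 6 Gbp genes, was also the highest for Ifng. Among the receptor chains, Ifngr2 was at 97.0 to 107 CPM and 62.3 to 74.3 CPM, with no overlap (log2 fold change 0.60, edgeR adjusted p = 0.462, DESeq2 adjusted p = 0.0526), and Ifngr1 was at -0.15. The kinases Jak1 and Jak2 had log2 fold changes of 0.36 and -0.01. Ifngr1 was at 0.23 and Jak2 at 0.13 without Dicer1-deleted replicate 2.

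Among the transcription factors of the pathway, Irf1, a direct activator of Gbp genes, overlapped between groups. Irf1 was at 425, 243 and 263 CPM in the Dicer1-deleted and 154, 160, 111 and 313 CPM in the control libraries (log2 fold change 0.75 ± 0.39 SE, edgeR adjusted p = 0.734). As for Gbp2, Gbp3, Gbp4, Gbp7 and Gbp9, Dicer1-deleted replicate 1 was the highest and control replicate 4 exceeded at least 1 Dicer1-deleted library. Irf8, a factor of the myeloid lineage, differed from this order. It rose in DESeq2 (adjusted p = 0.0108; edgeR adjusted p = 0.207), at 55.5, 109 and 80.3 CPM against 30.7, 42.3, 24.8 and 37.2 CPM, with its highest value in Dicer1-deleted replicate 2. Without that library the DESeq2 adjusted p was 0.0774, at a log2 fold change of 1.01 in place of 1.30. Batf2, Stat3, Irf2 and Irf9 had log2 fold changes of 1.10, 0.31, 0.16 and -0.08, and without that library Batf2 was at 0.54 and Irf9 at 0.19. Of the inhibitors, Socs1 was at 2.48, from a low level of at most 2.54 CPM, Socs3 at 0.10, Ptpn2 at -0.19, Ptpn11 at -0.01 and Pias1 at -0.24. When Dicer1-deleted replicate 2, which held the highest Socs1 level, was left out, Socs1 was at 1.23, Socs3 at -0.36, Ptpn11 at -0.63 (edgeR adjusted p = 0.502) and Pias1 at 0.14.

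The immunity-related GTPases, a second family of interferon-induced GTPases that act on the same vacuoles, had positive values in 10 of 11 tested genes, with a median of 0.60 on the log2 scale, beside 52.6% positive among all genes. None passed in edgeR, and 4 had an unadjusted p under 0.05 (8.01% of all genes in either direction). For 5 of the 11 every Dicer1-deleted library was above every control, beside 3.86% of all genes. In DESeq2 2 rose (0.925% of all genes), Gm12250 (also called Irgb10) and Tgtp1. Gm12250 went from 50.1 ± 2.83 to 100.8 ± 18.8 CPM (DESeq2 adjusted p = 8.12e-04). Tgtp1 went from 55.9 ± 12.1 to 111 ± 26.8 CPM (DESeq2 adjusted p = 0.0358, SD, n = 4 and 3). Without Dicer1-deleted replicate 2 the median was 0.94, and 7 had an unadjusted edgeR p under 0.05 (9.42% of all genes in either direction). The DESeq2 adjusted p of Tgtp1 was then 0.0518 at a log2 fold change of 1.07, beside 1.01 with that library. Tgtp1 and Tgtp2 are close copies that can share reads. Tgtp2, Ifi47, Iigp1 and Irgm1 had log2 fold changes of 0.90, 0.56, 0.62 and 0.48 with edgeR adjusted p-values of 0.390, 0.593, 0.996 and 0.946. Without that library Iigp1 was at 1.001 and Irgm1 at 0.80.

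Genes that act together with guanylate-binding proteins had a median fold change close to that of all genes. Of 27 genes of autophagy, inflammasomes, the phagocyte oxidase and galectins, 0 had an unadjusted p under 0.05 in edgeR, 0 passed in DESeq2, and the median log2 fold change was 0.07 with 16 positive. Without Dicer1-deleted replicate 2 the median was -0.09 with 11 positive, and 1 gene had an unadjusted p under 0.05, Map1lc3a of autophagy, named after its values were seen (log2 fold change -1.09, edgeR adjusted p = 0.425). The most abundant were the galectin Lgals3, the oxidase subunits Cyba and Cybb, and the oxidase regulator Rac2, with log2 fold changes of 0.07, 0.29, 0.20 and 0.27. Without that library they were at -0.54, -0.32, 0.41 and -0.31. The 8 enzymes that attach or trim the lipid tail of prenylated proteins, which some guanylate-binding proteins carry, had a median of -0.08. None passed in edgeR or DESeq2. Zmpste24, Ggps1, Pggt1b and Rce1, the most abundant, were at -0.14, -0.02, -0.35 and 0.27, and without that library at 0.20, 0.10, 0.06 and 0.03. Fntb, a farnesyltransferase subunit, is named after its values were seen as the 1 gene of that list with an unadjusted edgeR p under 0.05, with a log2 fold change of -0.65 (adjusted p = 0.606). The 1 such gene without Dicer1-deleted replicate 2 was the methyltransferase Icmt, at -0.66 (edgeR adjusted p = 0.519), also named after its values were seen.

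Macrophage genes dominated every library, and traces of other cells moved with the groups. The 8 macrophage markers summed to 6056 to 9198 CPM in the Dicer1-deleted and 5947 to 8564 CPM in the control libraries, and Lyz2, which holds the Cre insertion, was at 50.7 to 67.2 and 103 to 212 CPM. The 13 T and NK cell markers summed to 9.96 to 21.7 and 11.3 to 13.5 CPM, with the highest sum in Dicer1-deleted replicate 1. Of the 11 tested, 8 had a positive log2 fold change, beside 52.6% of all genes, and the median was 1.41. Nkg7, a gene of cytotoxic granules, was at 2.64 to 6.02 against 0.673 to 1.73 CPM. Of the CD3 chain genes, Cd3e was at 0.661 CPM or less in every library. Cd3g was at 1.29 to 1.66 against 0.0898 to 0.729 CPM, without overlap. Cd2 had the opposite direction, also without overlap, at 1.32 to 1.88 against 3.899 to 7.66 CPM, and Cd4 had means of 0.852 ± 0.831 and 2.69 ± 1.31 CPM (SD, n = 3 and 4). Sums of 5 B cell markers (15.1 to 27.6 against 6.43 to 11.1 CPM), 6 neutrophil markers (110 to 184 against 41.5 to 72.4 CPM), 5 dendritic cell markers (8.55 to 11.4 against 2.24 to 6.74 CPM) and 5 endothelial markers (39.4 to 72.1 against 3.68 to 16.9 CPM) were higher in all Dicer1-deleted libraries. The B cell sum rested on Cd79b and the neutrophil sum on Mmp8, which held most of each. Of the 5 dendritic cell markers, 3 had a positive log2 fold change (Xcr1, Clec9a and Batf3). Flt3 and Zbtb46 had lower means in the Dicer1-deleted libraries, at 0.185 against 0.586 and 0.957 against 1.82 CPM, with overlapping groups. The endothelial sum rested on Pecam1, which myeloid cells also express, while Cldn5 was at 0 in all libraries and Tek at 0.126 CPM or less. The B cell factor Pax5 was at 0.0508 CPM or less, Camp at 0 and Ly6g at 0.102 CPM or less. The 5 fibroblast and 4 epithelial markers overlapped between groups, at 12.5 to 23.3 against 12.4 to 27.5 and 5.54 to 9.09 against 1.75 to 13.2 CPM. The part of these cells in the Gbp levels was not tested.

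The shares of multiply placed reads credited to a gene were small for the chromosome 3 members and larger on chromosome 5. These shares made up 0.390% to 1.09% of the total for Gbp2, 0.971% to 2.02% for Gbp3 and 1.06% to 2.20% for Gbp7. For Gbp4, Gbp8 and Gbp9 the ranges were 4.10% to 7.40%, 4.39% to 7.83% and 2.56% to 4.81%. In GENCODE transcripts, 21.2% of the 50-base words of Gbp8, 12.8% of those of Gbp4 and 9.56% of those of Gbp9 occurred in another Gbp gene, against 2.07% for Gbp2, 2.28% for Gbp7 and 4.79% for Gbp3. With multiply placed reads included, the log2 fold changes of Gbp4, Gbp8 and Gbp9 were 1.71, 1.64 and 0.82, beside 1.72, 1.64 and 0.83 without them. How the shares were divided among copies is not stated. Shares divided in proportion to unique reads would leave fold changes nearly the same. The small change therefore does not show which copy such reads came from.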

How the data were processed

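RNA of F4/80+ tumor macrophages was amplified from 2 ng of total RNA (SMARTer, then Nextera XT) and sequenced as 50-nt read pairs, per the labels' protocols. Per the submitters' processing notes Bowtie2 was used. The kits named do not mark strand. Bowtie2's version, the genome build, the gene models and the counter were not given in the sources used here. The deposited files hold, per the file headers, counts of uniquely placed reads, expected counts that add shares of multiply placed reads, and RPKM values that the authors computed, with lengths and totals not stated. Counts were even, so both mates were counted. The 31124 unlisted values were set to 0. Of 24084 IDs, 21813 matched GENCODE M21, 274 RefSeq by the Entrez ID in the files, and 1997 neither. Depth was 42974524 to 51152370 reads. PCR reads are not independent molecules, and the biological coefficient of variation, 45.1%, limits precision more.

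The groups, 3 and 4 libraries, were compared in edgeR 4.0.16 (R 4.3.3) on unique counts of all genes kept by filterByExpr, with TMM scaling, the quasi-likelihood F test, no covariate and Benjamini-Hochberg adjustment at 0.05. SE is the log2 fold change over the root of F. DESeq2 1.42.0 and limma 3.58.1 (voom) were alternatives, with expected counts rounded. RPKM values were compared between genes without a test. The fits were tested on simulated data. Named genes were Dicer1, the members, other Gbp rows, all tested signalling genes, the 4 most abundant and up to 4 DESeq2-called genes of each other list, and the 5 genes most alike, except 1 gene that is not reported here. The members and lists were chosen with earlier results of these data known.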

Additional observations from a re-analysis of the deposited data

Results flagged for a closer look

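The row described as Gbp6 had 1 control library far from the other 3. Control replicate 4 was at 58.0 CPM and the others at 19.3, 17.9 and 11.9 CPM, so its gap to the nearest library was 0.84 of the range, above Dixon's critical value for 4 samples. The 11 Gbp rows were examined in this way, and chance marks about 1 in 20 groups. The same library was the highest control for all 6 members.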

How the results depend on the processing

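All 6 members kept a positive log2 fold change under each of 20 alternatives, with ranges of 0.68 to 1.49 for Gbp2, 0.40 to 1.27 for Gbp3, 1.21 to 2.35 for Gbp4, 0.17 to 0.90 for Gbp7, 1.35 to 1.99 for Gbp8 and 0.26 to 1.32 for Gbp9. The lowest value came without Dicer1-deleted replicate 1 for 5 of them, and without control replicate 3 for Gbp8. The members called went from 0 to 1 in DESeq2 and to 2 in DESeq2 without Dicer1-deleted replicate 2, an alternative added after seeing the data. In DESeq2 the signalling genes called went from 0 to 1 and the immunity-related GTPases from 0 to 2, the latter to 1 without that library. Counts called with each replicate left out in edgeR were 0 for the members and for each of the 4 lists. The row described as Gbp1 passed in DESeq2 (adjusted p = 6.92e-07), with no filter on low counts in edgeR (0.0286) and in limma-voom with sample quality weights (0.0479). The causes were not tested. No scaling shifted the median of all genes by over 0.1 (log2). No paired analysis was possible because the titles number the libraries 1 to 7 and the groups share no replicate number. Members had 384 to 48818 reads per library, so the spread between libraries, not depth, limits these comparisons.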
